A study of Mus musculus with 6 samples.

Results

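The genes described here lie on both sides of Fkbp8 on mouse chromosome 8, from Tssk6 to Fcho1 in the order of the RefSeq annotation of GRCm38.p6. They form a list of 53 neighbours that leaves out Fkbp8 itself, chosen by position but with earlier results of these data known. The list also leaves out 31 other protein-coding genes of the interval. Each array probe was matched to the list by gene symbol. Of the 53 genes, 47 had at least 1 probe assigned to them alone (57 of the 34967 gene probes), and 43 had a probe bright enough to be tested, among 13324 named genes tested in all. The comparison sets 3 mutant samples (a, b and c) against 3 wildtype samples (d, e and f). In both groups the tissue is posterior tissue of E9.5 mouse embryos, cut just behind the forelimb bud, and the embryos come from crosses between heterozygous carriers of an Fkbp8 mutation. Each of the 6 samples was hybridized to its own 1-colour CodeLink array. The labels give neither the nature of the allele, nor the strain, nor the sex of the embryos, and for mutant a the source label is in the plural, so whether that sample is 1 embryo or several is not settled.

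Fkbp8 encodes a membrane-anchored member of the FK506-binding protein family that sits on the outer mitochondrial membrane and binds BCL2. Genes that lie close together on a chromosome are inherited together, so an embryo that receives a mutated copy of a gene usually also receives the neighbouring genes from the same parental chromosome. The neighbours of Fkbp8 have no common function. They include factors of transcription (Ell, Crtc1, Rfxank), RNA decay and splicing (Upf1, Lsm4, Sugp1), vesicle and lysosome traffic (Cope, Rab3a, Kxd1, Borcs8) and genes of blood, immune and vessel cells (Bst2, Ifi30, Jak3, Plvap).

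Fkbp8 and the 2 flanking genes that passed the test, Ccdc124 and Bst2, are shown first by the bases just before their annotated starts, because these are the genes on which the comparison turns. The sequences are those of RefSeq (GRCm38.p6), 250 bases each and written 5′ to 3′ along the gene. The windows are chr8:70527493-70527742 on the plus strand for Fkbp8, chr8:70873491-70873740 on the minus strand for Ccdc124 and chr8:71537473-71537722 on the minus strand for Bst2. Capitals mark matches, on either strand, to an interferon-stimulated response element (GAAA, any 2 bases, GAAA), a STAT site of the GAS type (TTCNNNGAA), a CCAAT box (CCAAT) and a GC box (GGGCGG).
Fkbp8: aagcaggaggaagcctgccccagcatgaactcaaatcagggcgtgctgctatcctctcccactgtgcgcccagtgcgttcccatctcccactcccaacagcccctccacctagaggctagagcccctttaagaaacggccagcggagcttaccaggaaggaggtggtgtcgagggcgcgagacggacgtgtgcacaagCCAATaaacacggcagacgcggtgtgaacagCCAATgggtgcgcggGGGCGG
Ccdc124: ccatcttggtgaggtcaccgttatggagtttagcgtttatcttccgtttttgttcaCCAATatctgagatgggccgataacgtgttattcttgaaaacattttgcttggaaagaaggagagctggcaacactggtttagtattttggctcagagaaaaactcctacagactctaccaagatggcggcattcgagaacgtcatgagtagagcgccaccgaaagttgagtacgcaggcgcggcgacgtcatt
Bst2: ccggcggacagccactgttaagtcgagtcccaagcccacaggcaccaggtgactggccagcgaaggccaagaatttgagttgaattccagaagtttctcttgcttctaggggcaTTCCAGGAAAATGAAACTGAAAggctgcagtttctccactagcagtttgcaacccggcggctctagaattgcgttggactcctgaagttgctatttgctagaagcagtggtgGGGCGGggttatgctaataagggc
The window of Bst2 held 2 matches to the interferon element that overlap each other and 1 match to the GAS letters that overlaps them, besides 1 GC box. Ccdc124 had 1 CCAAT box and no match to the other motifs, and Fkbp8 had 2 CCAAT boxes and 1 GC box. Among all 32851 promoter windows of the same length, 2.98% held the interferon element, 7.02% the GAS letters, 33.8% a CCAAT box and 32.7% a GC box. Of the 45 listed neighbours with a promoter sequence, 5 held, in at least 1 window, the interferon element, 1 the GAS letters, 17 a CCAAT box and 35 a GC box. The percentages are per window and these counts are per gene, and a gene can have several windows, so the 2 cannot be compared directly. These matches describe the letters of the reference and were not tested for binding, and the sequences of the array probes were not used here.

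Mutant c was the dimmest array, with a median background-subtracted intensity of 52.1, against 60.7 to 65.1 on the other arrays. Mutant arrays also resembled each other less than wildtype arrays did. Between 57.6% (mutant c) and 61.8% (wildtype f) of gene probes were above background, going by the quality mark of the scanner (good or saturated). Log2 intensities correlated across probes at 0.987 to 0.990 among mutant arrays, at 0.992 to 0.993 among wildtype arrays and at 0.988 to 0.990 between the groups, and the median standard deviation of a probe was 0.11 in mutants and 0.10 in wildtype. All 14 trunk and tail genes looked at, among them Hoxa9, Hoxc8, Cdx2, T and Pax3, had a probe above background. Of the forebrain and midbrain genes, Otx2 and Hesx1 were dim on every array, while Six3, En1, Emx2 and Rax were above background on all 6. Signal of Eif2s3y, Uty and Ddx3y, all on the Y chromosome, stood above background in 3 of 3 mutants and 0 of 3 wildtypes, and that of Xist in 0 of 3 mutants and 3 of 3 wildtypes. Kdm5d, also on the Y chromosome, was above background in 3 of 3 mutants and 3 of 3 wildtypes. It was higher in mutants (log2 fold change 0.63, limma adjusted p = 0.040). Genotype and sex-linked expression therefore cannot be told apart for any gene below. Only 3 arrays stand behind each group, which limits how precise any value can be.

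Fkbp8 signal was lost in the mutants, which checks the labels. Its log2 intensity was 6.28, 6.30 and 6.11 in mutants a, b and c, against 10.57, 10.74 and 10.67 in wildtypes d, e and f. No mutant had the probe above background, and Fkbp8 was lower by at least 18.8-fold in mutants (limma adjusted p = 1.18e-07). The sources used here do not say where the probe lies relative to the mutation.

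Of the 43 flanking genes tested, 2 were lower and 0 higher in mutants past an adjusted p of 0.05 in limma (p-values adjusted over all 21688 probes). Over all probes tested, 0.0553% were lower and 0.0646% higher by the same rule. The 2 genes are Ccdc124 and Bst2. Both lie on the same side of Fkbp8. Between Fkbp8 and Ccdc124 are 19 protein-coding genes (13 of them tested), and between Ccdc124 and Bst2 are 21 (12 tested). Both were named for the comparison with earlier results of these data known, so the count is not an independent test of the list. Bst2 entered the test only through the 3 wildtype arrays, as its probe was above background in 0 of 3 mutants. The other 41 tested genes had log2 fold changes between -0.33 and 0.37, with adjusted p-values of 0.218 and above.

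Ccdc124 encodes a ribosome-associated protein that human cells also use at the end of cell division. Its log2 intensity was 9.26, 9.11 and 9.17 in mutants a, b and c, against 10.56, 10.51 and 10.40 in wildtypes d, e and f. The groups did not overlap, and the gap between them exceeded the spread within each (9.18 ± 0.07 in mutants and 10.49 ± 0.08 in wildtype, SD, n = 3 each). Ccdc124 fell 2.48-fold in mutants, or -1.31 on the log2 scale (SE 0.08, limma adjusted p = 0.000395), and was above background on all 6 arrays. In the deposited normalized intensities, where 1 is the median of an array, it stood at 9.40, 8.07 and 8.20 in the mutants and at 23.3, 23.0 and 20.3 in the wildtypes. The call held in all 18 alternative settings and array removals, with log2 fold changes from -1.41 to -1.25. As the tissue was measured in bulk, fewer cells with a transcript and less of it per cell cannot be told apart, here and below.

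Bst2 encodes tetherin, a membrane protein induced by interferon that holds budding enveloped viruses at the cell surface. Its log2 intensity was 6.37, 6.41 and 6.36 in mutants a, b and c, against 6.92, 6.97 and 7.09 in wildtypes d, e and f. The groups did not overlap. Its probe was not above background in any mutant, though it was in all 3 wildtypes. Mutant Bst2 was lower by at least 1.46-fold, and limma gave -0.61 on the log2 scale (SE 0.08, adjusted p = 0.037). The background correction adds a constant to each spot and shrinks the differences of dim probes. With background-subtracted values and no such constant the log2 fold change was -1.45 (limma adjusted p = 0.0162). The deposited intensities averaged 0.417 ± 0.027 in mutants and 1.13 ± 0.13 in wildtype (SD, n = 3 each). As no mutant had the probe above background, the mutant values lie near the floor and the size of -1.45 is uncertain. The call was lost with median centring (adjusted p = 0.0781) and without background correction (adjusted p = 0.0512). It was also lost whichever array was left out, with adjusted p-values of 0.0801, 0.11 and 0.093 without mutants a, b and c and of 0.113, 0.173 and 0.195 without wildtypes d, e and f.

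**Figure D1:**
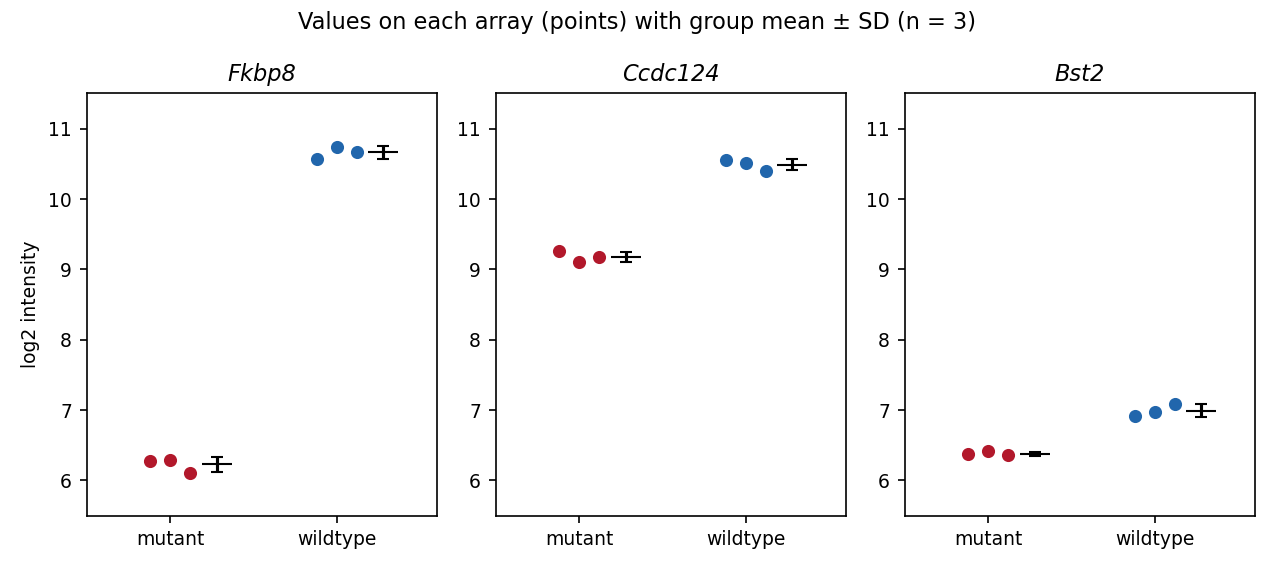
Log2 intensity of Fkbp8, Ccdc124 and Bst2 on each array (points; mutants in red on the left, wildtypes in blue on the right), with the group mean and SD beside them (n = 3 each). For each of the 3 genes every mutant array lies below every wildtype array, and the mutant values of Fkbp8 and Bst2 are not above background.

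No other gene of the interferon system that was tested passed the threshold. Of 18 further interferon-induced genes, 14 had a probe, 7 of these were not above background on any array (Mx1, Ifit1 and Usp18 among them), and 6 were tested. Of these 6, 2 were lower and 4 higher in mutants, with 0 at an adjusted or an unadjusted p under 0.05 in limma. The smallest p belonged to Irf9, a partner of the STAT factors (log2 fold change 0.17), and to Ifi35 (0.20). Among 11 tested receptors, kinases and STAT factors of interferon and JAK signalling, 4 were lower and 7 higher and 0 passed, and the receptor chain Ifngr2 had the 1 unadjusted p under 0.05 (-0.21, adjusted p = 0.342). Ifi30, a flanking gene that encodes an interferon-induced thiol reductase of lysosomes, gave 0.13 on the log2 scale (SE 0.08, adjusted p = 0.548), which did not pass. Jak3, a kinase of cytokine receptors in lymphoid cells, had 0.04 (SE 0.12, adjusted p = 0.923). Of 13 markers of white blood cells, Ptprc, Csf1r, Adgre1, Aif1 and Itgam were not above background on any array, while Spi1, Cd68, Coro1a and Laptm5 were above it on all 6. Of the 7 tested members of that list 0 passed, Coro1a had the 1 unadjusted p under 0.05 (0.28), and the mean log2 level of the 13 genes was 6.76 to 6.91 in mutants and 6.73 to 6.84 in wildtype.

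The genes next to Fkbp8 did not pass the test. Kxd1, a subunit of the complex that positions lysosomes, is the nearest gene on the side of Tssk6. It had log2 intensities of 6.98, 7.01 and 7.17 in mutants, against 7.16, 7.01 and 7.14 in wildtypes. Ell, an elongation factor of RNA polymerase II, is the nearest gene on the other side, with 8.69, 8.63 and 8.60 in mutants, against 8.52, 8.69 and 8.59 in wildtypes. For both genes the groups overlapped, and the log2 fold changes were -0.05 (SE 0.08) for Kxd1 and 0.04 (SE 0.08) for Ell. Beyond them, Ssbp4 (0.10, SE 0.11), Klhl26 (0.01, SE 0.08) and the CREB coactivator Crtc1 (-0.03, SE 0.07) had log2 fold changes no larger than their standard errors. At an unadjusted p under 0.05 in limma, 3 of the 12 tested within 10 genes of Fkbp8 were lower and 1 higher (33.3%). The share was 32.6% for all tested flanking genes and 13.5% for all named genes. Isyna1, Tmem59l and Upf1 were the lower genes and Rex1bd the higher one, all described below. Lrrc25 and Gdf15, a stress-induced cytokine whose probe is named only by a similarity in the array file, were not above background on any array. The same held for Il12rb1, a receptor chain of T and natural killer cells, and for Slc5a5, the iodide transporter of the thyroid.

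**Figure D2:**
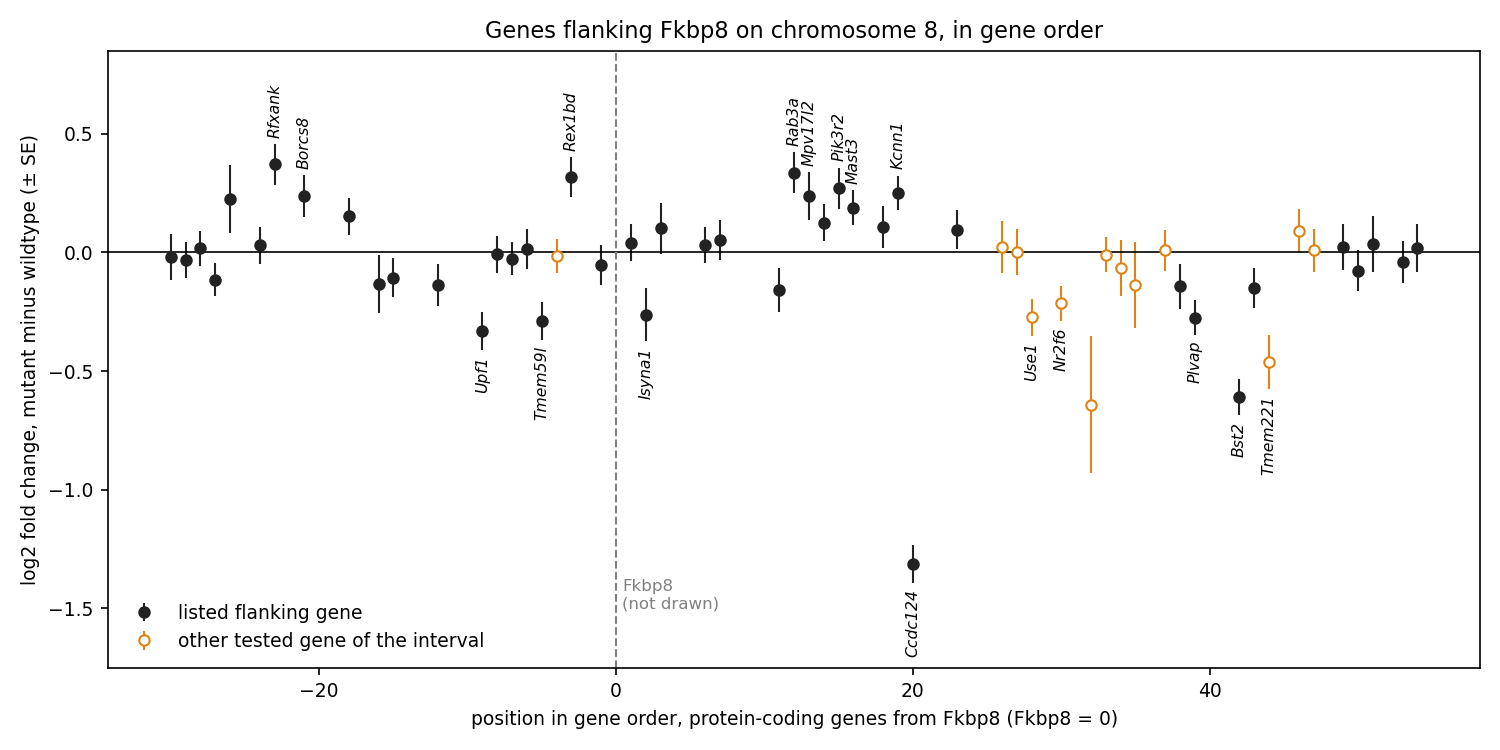
Log2 fold change (mutant minus wildtype, error bars SE) of each tested gene of the interval, by its place in the order of protein-coding genes counted from Fkbp8 at 0. Filled points are the 43 tested flanking genes and open points the 13 other tested genes of the interval. Names mark genes with an unadjusted p under 0.05, and only Ccdc124 (-1.31) and Bst2 (-0.61) passed after adjustment.

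Smaller differences in both directions were frequent among the flanking genes. At an unadjusted p under 0.05 in limma, 6 of the 43 were lower and 8 higher in mutants (32.6% in all), where 5.81% of all probes tested were lower and 6.43% higher (12.2% in all). By genes rather than probes the share over the array was 13.5%. The groups did not overlap for 6 lower and 8 higher flanking genes, where 8.56% of all probes tested were lower and 11.2% higher in this way (19.7% in all, and 20.9% of genes). In sign alone, 20 of the 43 were below 0, as were 47.6% of all probes. The median log2 fold change of the 43 was 0.02, against 0.01 over all named genes, and the median of its absolute size was 0.13, against 0.10. Without wildtype f the count of 14 fell to 9 of 43, when 8.05% of all probes had such a p. Apart from Ccdc124 and Bst2, 0 of the 14 passed after adjustment.

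Among genes on the side of Tssk6, Rfxank had the smallest p among those higher in mutants. Rfxank, a subunit of the factor that drives MHC class II genes, had log2 intensities of 8.96, 9.10 and 8.95 in mutants, against 8.51, 8.70 and 8.68 in wildtypes. Rex1bd had 12.21, 12.28 and 12.12 in mutants, against 11.80, 11.98 and 11.87 in wildtypes. All mutant values of both genes lay above all wildtype values, with log2 fold changes of 0.37 (SE 0.09, adjusted p = 0.218) and 0.32 (SE 0.08, adjusted p = 0.239). Upf1, the RNA helicase of nonsense-mediated decay, had 8.51, 8.48 and 8.56 in mutants, against 8.76, 8.94 and 8.85 in wildtypes. Tmem59l, a membrane protein of neurons, had 7.85, 7.73 and 7.88 in mutants, against 8.15, 8.01 and 8.16 in wildtypes. Here all mutant values lay below the wildtype values, with log2 fold changes of -0.33 (SE 0.08, adjusted p = 0.221) and -0.29 (SE 0.08, adjusted p = 0.264). Sugp1, a splicing factor, was lower without overlap (-0.11, SE 0.07, adjusted p = 0.54), as Tmem161a was higher (0.15, SE 0.08, adjusted p = 0.463). Over that side as a whole, 11 of 19 tested genes were lower and 8 higher, and 0 passed.

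The probes of Borcs8, another subunit of the lysosome-positioning complex, disagreed in sign. The brighter probe had log2 intensities of 10.64, 10.70 and 10.62 in mutants, against 10.57, 10.37 and 10.30 in wildtypes (log2 fold change 0.24, SE 0.09, adjusted p = 0.344). The dimmer probe had 8.42, 8.35 and 8.51 in mutants, against 8.63, 8.83 and 8.72 in wildtypes (-0.30, SE 0.09, adjusted p = 0.266). Neither probe's groups overlapped. The counts over flanking genes take Borcs8 as higher, by its brighter probe, but its direction is not settled, and with the probes of each gene averaged 13 of the 43 had an unadjusted p under 0.05. The tested probes of Plvap, Gatad2a and Pgpep1, the other flanking genes with more than 1, had the same sign within each gene. Those of Pgpep1, a peptidase, gave 0.24 (SE 0.09, unadjusted p = 0.0316) and, for the brighter one, 0.03 (SE 0.08).

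On the far side of Fkbp8, 7 neighbouring tested genes from Rab3a to Kcnn1 all had positive log2 fold changes, from 0.11 to 0.34 with a median of 0.24. This stretch was picked out after its values were seen. Rab3a, a small GTPase of synaptic vesicles, had log2 intensities of 7.29, 7.39 and 7.25 in mutants, against 6.88, 7.10 and 6.94 in wildtypes. Kcnn1, a calcium-activated potassium channel, had 6.86, 6.95 and 6.87 in mutants, against 6.66, 6.67 and 6.60 in wildtypes. All mutant values of both lay above the wildtype values (0.34, SE 0.09, and 0.25, SE 0.07), yet neither passed (adjusted p = 0.239 and 0.266). Pik3r2, a regulatory subunit of phosphoinositide 3-kinase, had 9.25, 9.49 and 9.39 in mutants, against 9.12, 9.17 and 9.03 in wildtypes. The kinase Mast3 had 8.99, 9.04 and 8.95 in mutants, against 8.75, 8.85 and 8.81 in wildtypes. Their groups did not overlap either (0.27, SE 0.09, adjusted p = 0.302, and 0.19, SE 0.07, adjusted p = 0.356). Mpv17l2, a protein of mitochondrial ribosome assembly, had 8.81, 8.92 and 8.73 in mutants, against 8.45, 8.77 and 8.52 in wildtypes, and its groups overlapped (0.24, SE 0.10, adjusted p = 0.391). Ifi30 (0.13) and Arrdc2 (0.11, SE 0.09) complete the stretch, which ends at the neighbour Ccdc124 with its log2 fold change of -1.31.

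**Figure D3:**
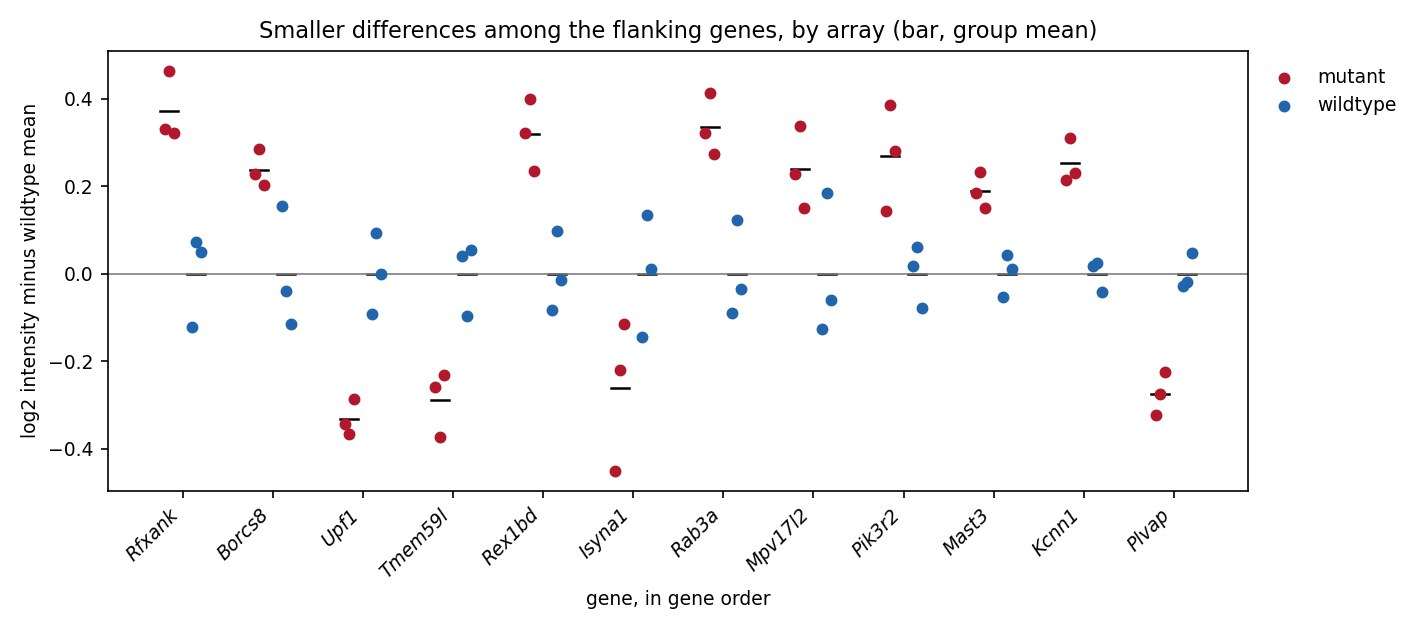
Log2 intensity minus the wildtype mean on each array (mutants in red on the left of each gene, wildtypes in blue on the right; bars, group means) for the 12 flanking genes other than Ccdc124 and Bst2 whose brightest probe had an unadjusted p under 0.05. None of the 12 passed after adjustment; the groups overlap for Isyna1 and Mpv17l2 and for none of the other 10 genes.

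Around Bst2 the values leaned the other way. The 4 tested flanking genes from Gtpbp3 to Mvb12a were all lower in mutants, and of all 12 genes tested from Use1 to Tmem221, 11 were lower and 1 higher, with a median of -0.18. This stretch too was chosen after its values were seen, and Bst2 was its 1 gene past the adjusted threshold. Plvap, which forms the diaphragms of endothelial pores, had log2 intensities of 10.50, 10.55 and 10.60 in mutants, against 10.79, 10.80 and 10.87 in wildtypes. All its mutant values lay below the wildtype values (-0.27, SE 0.07, adjusted p = 0.239). Its second tested probe gave the same size with a wider error (-0.27, SE 0.15). Of 12 tested endothelial markers 6 were lower and 6 higher, 0 passed, Kdr (0.25) and Ramp2 (0.21) had the smallest p, and the mean level of the list overlapped between mutants (8.59 to 8.63) and wildtype (8.56 to 8.65). Mvb12a, a subunit of the ESCRT-I sorting complex, had -0.15 (SE 0.09, adjusted p = 0.507), and Gtpbp3, a mitochondrial enzyme of tRNA modification, had -0.14 (SE 0.09, adjusted p = 0.574). Among genes of the stretch that were not on the list, Tmem221 was above background in no mutant and was lower there by at least 1.21-fold (adjusted p = 0.239). The values were -0.27 for Use1 (SE 0.08, adjusted p = 0.264) and -0.21 for the nuclear receptor Nr2f6 (SE 0.07, adjusted p = 0.319), and none of the 3 passed. Past this stretch, the 5 tested flanking genes from Colgalt1 (where mutant a gave no usable spot and was left out of the fit) to Fcho1 had values between -0.08 and 0.04, and 0 of them had an unadjusted p under 0.05.

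The other tested flanking genes had log2 fold changes between -0.16 and 0.22, and none had an unadjusted p under 0.05. Their range on the side of Tssk6 ran from -0.14 for Cope, a subunit of the COPI vesicle coat, to 0.22 for Tm6sf2, a membrane protein of liver and gut lipid export with a wide error (SE 0.14). Between these lay Armc6 (-0.13), Sugp2 (-0.11), the chromatin protein Gatad2a (-0.03), the kinase Tssk6 (-0.02), the cohesin loader Mau2 (0.02) and the brain proteoglycan Ncan (0.03). On the other side, Pde4c, a cAMP phosphodiesterase, had -0.16 (SE 0.09), Unc13a, a synaptic vesicle priming factor, -0.08 (SE 0.09), the glycosyltransferase B3gnt3 -0.04 (SE 0.09), Colgalt1, which adds sugar to collagen, 0.02 (SE 0.10), the endocytosis factor Fcho1 0.02 (SE 0.10), the snRNP subunit Lsm4 0.05 (SE 0.08) and the microtubule-associated protein Map1s 0.10 (SE 0.08). For each of these genes the values of the groups overlapped.

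Isyna1, the enzyme that makes inositol from glucose phosphate, lies close to Fkbp8. It had log2 intensities of 10.40, 10.63 and 10.74 in mutants, against 10.71, 10.99 and 10.86 in wildtypes. The highest mutant value lay above the lowest wildtype value, and the log2 fold change of -0.26 (SE 0.11) did not pass (adjusted p = 0.392).

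By role, each group of flanking genes held members of both signs. Of 6 tested genes of transcription and chromatin, 2 were lower and 4 higher, with 0 past the threshold. Genes of RNA processing and translation had 5 lower and 2 higher of 7, Ccdc124 being the 1 that passed. Traffic and synapse genes had 4 lower and 4 higher, and signalling genes 2 lower and 5 higher, with 0 passed in each. Of the 5 tested immune, vessel and matrix genes 3 were lower and 2 higher, with Bst2 the 1 that passed. Lipid and sugar chemistry (2 lower, 2 higher) and the 6 other genes (2 lower, 4 higher) had 0 past the threshold.

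Set against the rest of the chromosome, Ccdc124 had the most negative log2 fold change of any tested gene of chromosome 8 besides Fkbp8. Of the other 611 tested protein-coding genes there, 1 passed the test, the homeobox gene Irx3 (-0.65, SE 0.07, adjusted p = 0.0178), with 218 protein-coding genes between it and Fkbp8. At an unadjusted p under 0.05 stood 12.8% of these 611 genes and 15.9% of the 63 tested among the next 50 genes on each side of the interval, against 32.6% of the flanking genes. Such a share was not particular to the interval. It was 46.2% of 13 tested neuronal markers, 42.9% of 7 cartilage precursor, 33.3% of 15 erythroid and 25% of 12 endothelial markers. It was lower for trunk and tail (21.4% of 14), forebrain and midbrain (20% of 5) and white blood cell markers (14.3% of 7). The 2 interferon lists had 9.09% of 11 and 0% of 6. Of the 13 other tested genes inside the interval, 3 had such a p, all lower in mutants, and 0 passed. Across the 43 flanking genes, which share the same 6 arrays, the Spearman correlation of the absolute log2 fold change with gene-order distance from Fkbp8 was -0.12, given as a description.

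**Figure D4:**
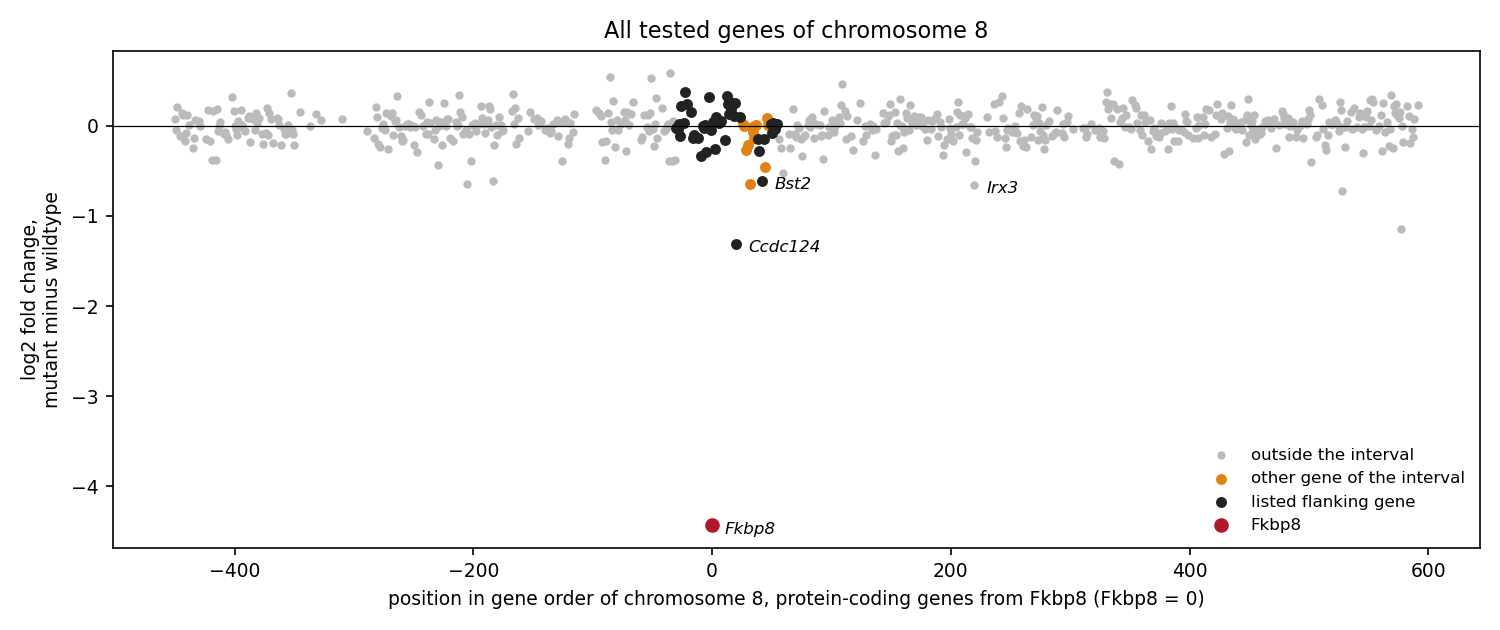
Log2 fold change (mutant minus wildtype) of all tested protein-coding genes of chromosome 8, by their place in gene order counted from Fkbp8 at 0. Fkbp8 (-4.43), Ccdc124 (-1.31), Bst2 (-0.61) and Irx3 (-0.65) are the 4 genes of the chromosome that passed the test.

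Other cell types that the dissection could hold were looked at beside these results. Erythroid markers were higher in mutants for 14 of 15 tested genes, where 7091 of all 13324 named genes tested were higher. The 14 include Hba-x (0.0012, SE 0.14) and Hbb-bh1 (7.4e-05, SE 0.08), whose signs carry no weight. The smallest p belonged to Alas2 (0.41) and Rhag (0.22), with 0 passed and mean levels of 10.70 to 10.99 in mutants and 10.43 to 11.04 in wildtype. Neuronal markers were higher for 9 of 13, with the smallest p for Neurog2 (0.33) and Elavl3 (0.24), and 0 passed. At an unadjusted p under 0.05 in limma, 5 of these 13 were higher and 1 lower (46.2%, against 13.5% of all named genes). The mean levels of the neuronal list did not overlap, at 7.434 to 7.461 in mutants and 7.275 to 7.433 in wildtype, though the gap was narrow. Cartilage precursor markers were higher for 4 of 7, with Pax1 (0.37) and Acan (-0.27) of smallest p, and mean levels of 7.34 to 7.53 in mutants and 7.27 to 7.45 in wildtype. Comp, the flanking gene of cartilage matrix, gave -0.01 on the log2 scale (SE 0.08). Trunk and tail markers were lower for 11 of 14, with the smallest p for Hoxa9 (-0.51) and Hoxb8 (-0.32), and forebrain and midbrain markers higher for 4 of 5, with the smallest p for Lhx2 (0.51) and Six3 (0.18), with 0 passed in each of these 3 lists. Mean levels were 9.64 to 9.95 in mutants and 9.82 to 9.86 in wildtype for the trunk list, and 7.39 to 7.46 in mutants and 7.33 to 7.41 in wildtype for the forebrain list. All 5 sex-linked genes passed, 4 higher and Xist lower. The part of these cell types in the flanking genes' differences was not tested.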

How the data were processed

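Posterior tissue of 3 Fkbp8 mutant and 3 wildtype samples was measured on 1-colour arrays, and groups and replicate letters come from the sample titles. Per the file headers, CodeLink Expression Analysis measured the deposited spots. The intensity columns used are the spot mean and the median of the background around it. The authors' deposited series table holds the scanner's normalized intensity, the background-subtracted intensity divided by 1 factor per array. It is linear with a median of 1 on each array, and it equals the scanner values.

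Background was corrected with normexp (offset 50), spots marked contaminated, irregular or masked were left out, and log2 values were quantile-normalized. Testing required a probe to be above background on 3 or more of 6 arrays and to have 2 or more usable spots in each group, and was done with limma 3.58.1 in R 4.3.3 (lmFit and eBayes, two-sided, Benjamini-Hochberg adjustment over 21688 probes, threshold 0.05). The fit was tested on simulated data. For a probe that no array of a group had above background, the fold is a bound: the mean of the brighter group against, on each array, the lowest value above background or the value of that probe, whichever is higher. A single value also has an exact two-sided permutation test over the 20 regroupings of the arrays, whose smallest p is 0.1. That p was reached wherever the groups did not overlap. A gene is counted by its brightest tested probe.

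Probes were named from the platform annotation, updated through Entrez IDs with RefSeq (GRCm38.p6). Probes with several symbols were not assigned, which left Homer3, Ddx49, Cers1, Gdf1, Jund and Insl3 without a probe here. Gene order is that of GRCm38.p6, and the sources used here do not give the build of the array design.

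The members and lists were chosen with earlier results of these data known. Genes named are Fkbp8, Ccdc124 and Bst2, members with an adjusted or unadjusted p under 0.05, the 5 nearest members on each side of Fkbp8, members not above background, members whose probes disagree, other genes of chromosome 8 past the threshold, and the members of each marker list past it or with the 2 smallest p-values. Further genes were named after their values were seen. Marker lists covered interferon response, interferon and JAK signalling, white blood cells, erythroid, endothelial, cartilage precursor, neuronal, trunk and tail, forebrain and midbrain, and sex-linked genes. Nothing in the labels says that the samples of a group come from separate litters, so the spread behind each p-value may be technical. The alternatives were other normalizations and background corrections, the deposited table, other filters, flagged spots kept, an intensity trend, array weights, X and Y genes left out, probes averaged per gene, and each array left out in turn.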

Additional observations from a re-analysis of the deposited data

How the results depend on the processing

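Ccdc124 and Fkbp8 kept their direction and their call in each alternative in which they were tested (18 and 17 settings). Fkbp8 was not tested with the filter on all 6 arrays, and nor was Bst2. The count of flanking genes past the threshold, 2, was 1 with median centring, 1 without background correction, 1 with the filter on all 6 arrays and 1 whichever array was left out, the remaining gene being Ccdc124. Bst2 had log2 fold changes of -0.61 with median centring (adjusted p = 0.0781) and -0.66 without background correction (adjusted p = 0.0512), and of -0.65 to -0.56 without each array in turn, and passed in 9 of 17 settings with its direction kept in all 17. The cause was not tested, beyond the fact that fewer arrays entered where 1 was left out. The count of flanking genes at an unadjusted p under 0.05, 14, was 9 to 14 without each array in turn, lowest without wildtype f. Borcs8 turned to -0.031 when the probes of a gene were averaged, which follows from its opposed probes, and Pgpep1 ran from -0.0069 (without wildtype d) to 0.075 without each array in turn. Over the whole array, 26 probes passed, and 16, 13, 15, 16 and 14 did with median centring, floored background-subtracted values, the deposited table, the filter on all 6 arrays and X and Y genes left out. Without an array the number was 11 to 37. The median log2 fold change of all probes moved by less than 0.1 under every scaling tried. No paired analysis was possible because the titles give each of the 6 samples its own letter. Signal over background limits Bst2 in mutants and the 4 flanking genes that were not above background on any array.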

Other observations

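Homer3, a scaffold protein of synapses, and Ddx49, an RNA helicase, are neighbours in the interval, and 4 probes of the array are annotated to both at once, so that no value can be given to either gene. Probe GE1402008 had log2 intensities of 9.16, 9.01 and 9.24 in mutants, against 8.73, 8.61 and 8.55 in wildtypes. All its mutant values lay above the wildtype values, but its log2 fold change of 0.51 (SE 0.09) did not pass in limma (adjusted p = 0.136). The other probes gave -0.19 (SE 0.09), 0.13 (SE 0.08) and -0.0014 (SE 0.08), so that the 4 probes disagreed.

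Among the next 50 genes on each side of the interval, 15.9% of the 63 tested had an unadjusted p under 0.05, near the 13.5% over all named genes. Of those just beyond Tssk6, the lysophosphatidic acid receptor gene Lpar2 had a log2 fold change of 0.58 (limma adjusted p = 0.143), the homeobox gene Pbx4 one of -0.39 (0.155) and Ndufa13, a subunit of respiratory complex I, one of -0.38 (0.204). These genes were chosen after their values were seen, and none passed. Inside the interval, Babam1 had a log2 fold change of -0.64 with an SE of 0.29 and did not pass (adjusted p = 0.417), although its groups did not overlap.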
